A study of Mus musculus with 20 samples.

Results

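The transcripts examined were those of 10 genes of glucose uptake and glycolysis, Slc2a1, Slc2a3, Hk1, Hk2, Pfkp, Pgk1, Eno1, Eno2, Ldha and Ldhb. They were chosen by gene symbol from the 37561 genes shared by all deposited tables, and each symbol matched 1 gene. The cells were ESD3, a mouse embryonic stem cell line from strain 129s2/SvPas kept on primary embryo fibroblast feeders. They had been transduced with a viral vector for a short hairpin RNA, directed against luciferase in the control line and against HPRT (the human gene, per the study's methods) in the HPRT knockdown line. Both lines were selected with puromycin, and each was 1 transduced line. Spherical neural masses (SNM), the neural aggregates grown from these cells, were taken along a protocol for dopaminergic neurons and sampled for RNA-seq on each of days 0 to 4 and on every other day from day 6 to day 14. There was 1 library per line and day, made from pooled RNA, so the 20 libraries held 10 of each line.

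Hprt encodes the purine salvage enzyme that was targeted. Its log2 ratio, HPRT knockdown minus control, lay between -5.004 and -2.53 over the 10 days, and its mean over 9 days was 6.24% of the control. The day 6 libraries were given by the study as discrepant, so means, standard deviations and tests below are over the other 9 days and the day 6 values are given beside them. All 12 pluripotency markers that passed a filter on low values were lower in the knockdown by limma, with a daily median ratio from -7.08 on day 1 to -0.94 on day 0, and 0.15 on day 6. Of the neuron markers 7 of 13 were lower and 0 higher, and of the astrocyte and oligodendrocyte markers 11 of 18 were higher and 0 lower. Of 13 neuron markers 9 rose with day in the control line, where 19.6% of all genes rose. Endothelial markers were lower for 3 of 6 and fibroblast markers for 2 of 9, with none higher. Over all genes that passed the filter 26.5% were called lower and 52.9% in either direction, so the fibroblast count was near the background. The part of cell composition in the results below was not tested. In bulk RNA, fewer cells of a type and less transcript per cell cannot be told apart.

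Glucose enters most cells through facilitative transporters of the SLC2 (GLUT) family and is trapped inside by phosphorylation at a hexokinase. Glycolysis then turns it into pyruvate through the phosphofructokinase, phosphoglycerate kinase and enolase steps, among others, and lactate dehydrogenase interconverts pyruvate and lactate. Embryonic stem cells are known for a high rate of glycolysis. Neurons are known to use GLUT3 and the neuronal enolase, and several genes of this pathway, though not every isoform, are textbook targets of the hypoxia-inducible factors and of Myc.

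Promoter sequences of 9 of the 10 genes were found in the RefSeq table (build GRCm38.p6), with 13 annotated starts, and none was found for Slc2a3. Stretches before the start of 4 genes are shown, with Slc2a1 and Hk2 from the genes lower in the knockdown and Pgk1 and Ldha from the others. Whether the letters go with a lower level was not tested. Capitals mark the 5-letter strings ACGTG and GCGTG on either strand (read as CACGT and CACGC on the opposite one), the core letters bound by the hypoxia-inducible factors. ACGTG also lies in the letters CACGTG of a Myc E-box, where both strands match and the matches overlap. Slc2a1 is shown at chr4:119108674-119108723, plus strand. Hk2 is at chr6:82774492-82774690, minus strand. Pgk1 is at chrX:106186940-106186983 and Ldha, at the first of its 2 annotated starts, at chr7:46845649-46845784, both plus strand.
Slc2a1: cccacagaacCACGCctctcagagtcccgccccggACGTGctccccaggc
Hk2: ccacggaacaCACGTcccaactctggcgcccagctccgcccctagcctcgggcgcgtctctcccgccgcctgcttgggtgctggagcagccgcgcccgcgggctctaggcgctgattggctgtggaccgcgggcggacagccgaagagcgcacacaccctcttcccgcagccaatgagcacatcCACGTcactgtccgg
Pgk1: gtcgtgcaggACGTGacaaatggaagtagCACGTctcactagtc
Ldha: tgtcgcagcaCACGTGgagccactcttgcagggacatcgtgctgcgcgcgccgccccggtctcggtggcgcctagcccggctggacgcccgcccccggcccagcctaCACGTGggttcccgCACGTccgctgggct
In the 250 bases before the start, 11 of the 13 windows and 8 of the 9 genes held at least 1 match, and the Ldha window held 5 matches with overlaps counted. At least 1 match was present in 38.6% of all 32851 windows of this length, and 3 or more in 6.58%. These shares are of windows, so the count of genes, where any window of a gene sufficed, has no like background. The windows of the last 2 Eno1 starts overlapped and held the same 2 matches. Eno2 had 0 matches in its window. The letters were chosen with results of these data known, and a match is a description of the sequence and not a binding site.

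The first comparison asked whether the level of these transcripts differed between the lines through the course. The 2 main glucose transporters and the inducible hexokinase Hk2 were lower in the HPRT knockdown, to 41.8% of the control for Slc2a1, 42.4% for Slc2a3 and 59.2% for Hk2. The other 7 genes did not pass the test, and their means lay between -0.53 and 0.47 on the log2 scale. By limma, with Benjamini-Hochberg adjustment over the 13438 genes that passed the filter and a threshold of 0.05, 3 of 10 genes were called, each of them lower. Over all genes tested 52.9% were called in either direction and 26.5% lower, so the share called lower was near the background and the share called in all was under it. The median of the 10 means was -0.23, against 0.01 for all genes tested.

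**Figure D1:**
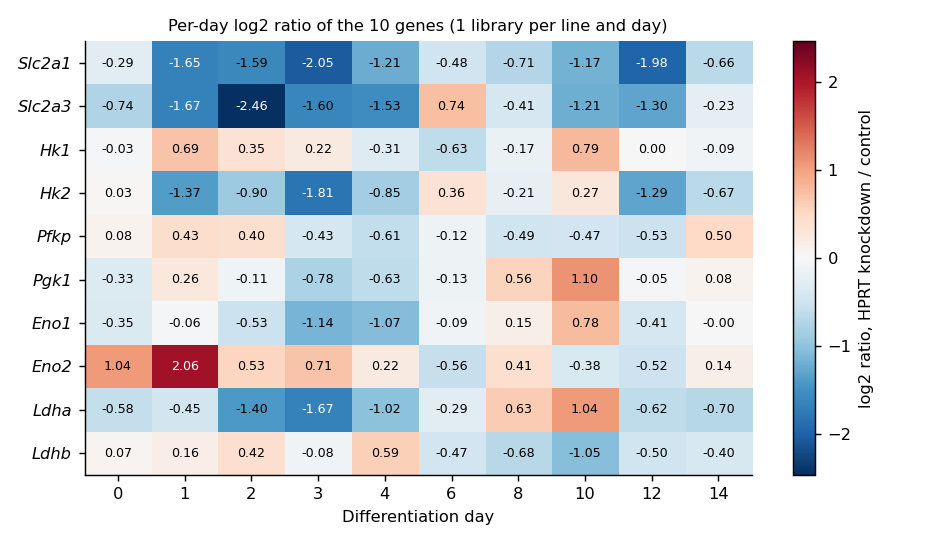
Log2 ratio of HPRT knockdown over control for each of the 10 genes (rows) on each of 10 differentiation days (columns), 1 library per line and day, with the value written in each cell and blue for lower and red for higher in the knockdown. Slc2a1 is below 0 on each day, Slc2a3 is below 0 on each day but day 6, and Ldha is at -1.67 on day 3 and 1.04 on day 10.

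Slc2a1 (Gene ID 20525, NCBIM37 chromosome 4, 118781316 to 118809935, plus strand, 12 exons) encodes GLUT1, the transporter of basal glucose uptake. On days 0 to 4 its log2 ratio was -0.29, -1.65, -1.59, -2.05 and -1.21. On days 8, 10, 12 and 14 it was -0.71, -1.17, -1.98 and -0.66, and day 6 was at -0.48. The knockdown library was thus the lower one on each of the 10 days, and the gap was smallest before differentiation began. The mean over these 9 days was -1.26 ± 0.61 (SD), with a limma adjusted p of 0.000519. The call held in 15 of 15 alternative settings, with adjusted p from 0.000225 to 0.0132 by limma or an exact sign-flip test.

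Slc2a3 (Gene ID 20527, chromosome 6, 122677827 to 122751658, minus strand, 14 exons) encodes GLUT3, the high-affinity transporter of neurons and early embryonic cells. Its log2 ratio ran through -0.74, -1.67, -2.46, -1.60 and -1.53 on days 0 to 4. The values for days 8, 10, 12 and 14 were -0.41, -1.21, -1.30 and -0.23, and that of day 6 was 0.74. The knockdown was lower on each of the 9 days tested, most on day 2, and was higher on day 6 only. Its mean was -1.24 ± 0.69 (SD, n = 9 days; limma adjusted p 0.000987). With day 6 kept the mean was -1.04 (limma adjusted p 0.00871), and the call held in 15 of 15 alternative settings.

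Of the hexokinases, Hk2 (Gene ID 15277, chromosome 6, 82675019 to 82724448, minus strand, 20 exons), the isoform of muscle, embryonic and tumor cells, had ratios of 0.03, -1.37, -0.90, -1.81 and -0.85 on days 0 to 4. Days 8, 10, 12 and 14 were at -0.21, 0.27, -1.29 and -0.67, and day 6 was at 0.36. The knockdown was lower on 7 of 9 days, with next to no gap on day 0. Hk2 had a mean of -0.76 ± 0.69 (SD, n = 9 days), with a limma adjusted p of 0.0126 and a range of 0.00565 to 0.0473 over 15 alternatives, the highest by the exact sign-flip test. Hk1 (Gene ID 15275, chromosome 10, 61731603 to 61842656, minus strand, 28 exons), the isoform of brain, had a mean of 0.16 ± 0.38 and did not pass (limma adjusted p 0.296). Its ratios ran from -0.31 on day 4 to 0.79 on day 10, with 4 days below 0 and 5 above, and -0.63 on day 6.

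Pfkp (Gene ID 56421, chromosome 13, 6579014 to 6648023, minus strand, 25 exons) encodes the platelet isoform of phosphofructokinase, which catalyzes the committed step of glycolysis. Its ratios ran from -0.61 on day 4 to 0.50 on day 14, and its mean of -0.13 ± 0.47 did not pass (limma adjusted p 0.498). The days above 0 were days 0, 1, 2 and 14, and day 6 was at -0.12.

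Pgk1 (Gene ID 18655, chromosome X, 103382439 to 103399038, plus strand, 11 exons) encodes the phosphoglycerate kinase of somatic cells. Its ratios on days 0 to 4 were -0.33, 0.26, -0.11, -0.78 and -0.63. Those on days 8, 10, 12 and 14 were 0.56, 1.10, -0.05 and 0.08, with -0.13 on day 6. The days of both signs offset each other in the mean of 0.010 ± 0.58 (limma adjusted p 0.967), with its lowest value on day 3 and its highest on day 10.

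Eno1 (Gene ID 13806, chromosome 4, 149610830 to 149622988, plus strand, 12 exons), the ubiquitous enolase, had ratios of -0.35, -0.06, -0.53, -1.14 and -1.07 on days 0 to 4. Later ratios were -0.09 on day 6 and 0.15, 0.78, -0.41 and -0.0024 on days 8, 10, 12 and 14. Like Pgk1 it was lowest on day 3 and highest on day 10. Its mean of -0.29 ± 0.60 did not pass (limma adjusted p 0.204), and without day 10 it was -0.43 with a limma adjusted p of 0.0478. Eno2 (Gene ID 13807, chromosome 6, 124710071 to 124719691, minus strand, 10 exons), the neuronal enolase, had ratios of 1.04, 2.06, 0.53, 0.71 and 0.22 on days 0 to 4. Days 8, 10, 12 and 14 gave 0.41, -0.38, -0.52 and 0.14, and day 6 gave -0.56. The knockdown was the higher library on each of days 0 to 4 and on 7 of 9 days in all, with the largest gap on day 1. Eno2 was the one gene of the 10 with a typical log2 count between 4 and 8, and whether its ratios are understated was not examined. Its mean of 0.47 ± 0.77 did not pass (limma adjusted p 0.118).

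Ldha (Gene ID 16828, chromosome 7, 54096845 to 54110997, plus strand, 11 exons), the lactate dehydrogenase subunit of glycolytic tissue, had ratios of -0.58, -0.45, -1.40, -1.67 and -1.02 on days 0 to 4. On days 8, 10, 12 and 14 they were 0.63, 1.04, -0.62 and -0.70, with -0.29 on day 6. The knockdown was lower on 7 of 9 days, and days 8 and 10 went the other way. The mean was -0.53 ± 0.88 (limma adjusted p 0.116), and without day 10 it was -0.73 (limma adjusted p 0.0235). Ldhb (Gene ID 16832, chromosome 6, 142438769 to 142456477, minus strand, 9 exons), the subunit of oxidative tissue, ran from 0.59 on day 4 to -1.05 on day 10, with -0.47 on day 6. Its mean was -0.16 ± 0.54 (limma adjusted p 0.430).

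Reads of some of these genes could not be placed with certainty. Of the 50-base stretches of the merged exons, 68.3% for Pgk1, 26.7% for Ldhb, 20.7% for Eno1 and 17.0% for Ldha occurred elsewhere in the NCBIM37 genome, so their values could hold or lack reads of near-identical copies. The share was 2.10% for Slc2a3 and under that for the other 5 genes.

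**Figure D2:**
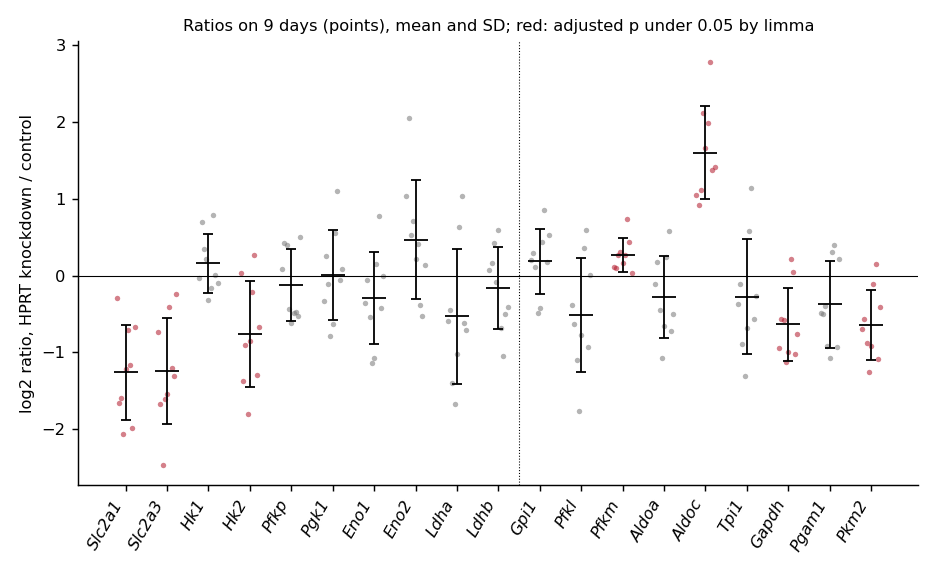
Log2 ratio of HPRT knockdown over control on 9 days (points, day 6 left out), with the mean (bar) and SD (whiskers), for the 10 genes (left of the dotted line) and 9 further enzymes of glycolysis. Red marks a limma adjusted p under 0.05; Slc2a1 and Slc2a3 are at -1.26 and -1.24, and Aldoc is at 1.60.

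The isoform pairs were then compared within the same libraries, where the difference of 2 genes does not depend on the scaling of the tables. Of 4 pairs, the hexokinases alone passed after adjustment, and that call did not hold in most alternatives. Hk2 minus Hk1 was -0.92 ± 0.79 (SD, n = 9 days) in the knockdown relative to the control, below 0 on 8 of 9 days, with p = 0.0117 by a two-sided exact sign-flip permutation test and 0.0469 after Benjamini-Hochberg adjustment over the 4 pairs. On day 6 this difference was 0.997, and with day 6 kept the mean was -0.73 with exact p = 0.0391 and 0.156 after adjustment. With 1 day left out the adjusted exact p ran from 0.0313 to 0.0938 and was under 0.05 in 2 of 9 cases, without day 0 or day 10. Slc2a3 minus Slc2a1 was 0.02 ± 0.50 with exact p = 0.945, and ran from -0.87 to 0.68 over the 9 days, so no difference between the transporters was shown within that spread.

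Eno2 minus Eno1 was 0.76 ± 1.05, above 0 on 7 of 9 days, with exact p = 0.0508 and 0.102 after adjustment. It was 1.39, 2.12, 1.07, 1.84 and 1.29 on days 0 to 4, and 0.26, -1.16, -0.10 and 0.14 on days 8, 10, 12 and 14, with -0.47 on day 6. The enolase balance was thus shifted toward Eno2 in the knockdown on each of the first 5 days, with no common sign later. Ldhb minus Ldha was 0.37 ± 1.33, with exact p = 0.410 and 0.547 after adjustment. With 9 days the smallest p of this test is 0.00390625.

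**Figure D3:**
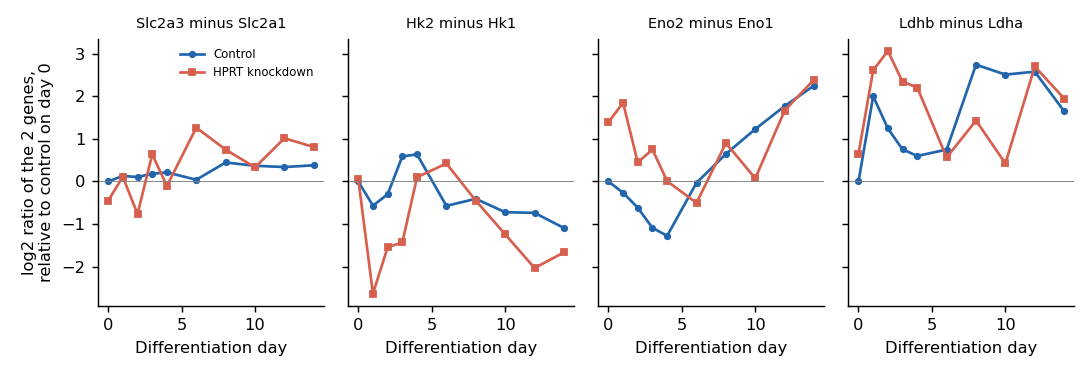
Log2 ratio of the 2 genes of each isoform pair by differentiation day, set to 0 in the control line on day 0, for the control (blue circles) and the HPRT knockdown (red squares), 1 library per point. Hk2 relative to Hk1 is lower in the knockdown on 8 of 9 tested days, and Eno2 relative to Eno1 ends at 2.26 in the control and 2.40 in the knockdown on day 14. Both curves include the control step from day 3 to day 4, where neighboring tables left a gap of 0.375 (log2) for Eno2.

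The courses within each line were built by adding up the steps between consecutive days, relative to day 0 of the same line. On the first day most of the genes fell in both lines. In the control line 9 of 10 fell, 4 of them by at least 2-fold, with a median of -0.94, where 3.41% of all genes tested fell that far. In the knockdown 8 of 10 fell, 5 of them by at least 2-fold, with a median of -0.92, where 10.0% of all genes fell that far. These are single steps with 1 library at each end and were not tested. A share over all genes is given for the 2-fold falls only, so the counts of any fall and the medians have no background. The fall was not particular to the 10 genes. Among other glycolysis genes the control step was -2.50 for Pfkl, -1.85 for Tpi1 and -1.42 for Aldoa. Pfkm (0.16) and Aldoc (0.92) rose.

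In the control line the first-day step was -1.86 for Ldha, -1.97 for Pgk1, -1.16 for Hk2, -1.15 for Eno2 and -0.997 for Slc2a1. In the knockdown it was -1.66 for Ldha, -1.31 for Pgk1, -2.50 for Hk2, -0.07 for Eno2 and -2.30 for Slc2a1. Slc2a1 and Hk2 therefore had the larger first-day fall in the knockdown, and Eno2 hardly moved there. Slc2a3 fell by 0.87 in the control and by 1.73 in the knockdown. Hk1 was at -0.59 and 0.20, Pfkp at -0.69 and -0.28, Eno1 at -0.89 and -0.53, and Ldhb at 0.14 and 0.30, with the control first.

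Later values, also single libraries with no test, differed between the lines for the transporters and Hk2. On day 4 of the control line Slc2a1 stood at 0.23 and Slc2a3 at 0.44 relative to day 0, and Hk2 at -0.31. In the knockdown on day 4 the values relative to its own day 0 were -0.63, -0.29 and -1.15. By day 14 the control stood at -1.06 for Slc2a1, -0.68 for Slc2a3 and -1.11 for Hk2, and the knockdown at -1.45, -0.19 and -1.84. Ldha was below its day 0 level on every later day in both lines, between -1.96 and -0.57 in the control and between -1.95 and -0.29 in the knockdown.

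**Figure D4:**
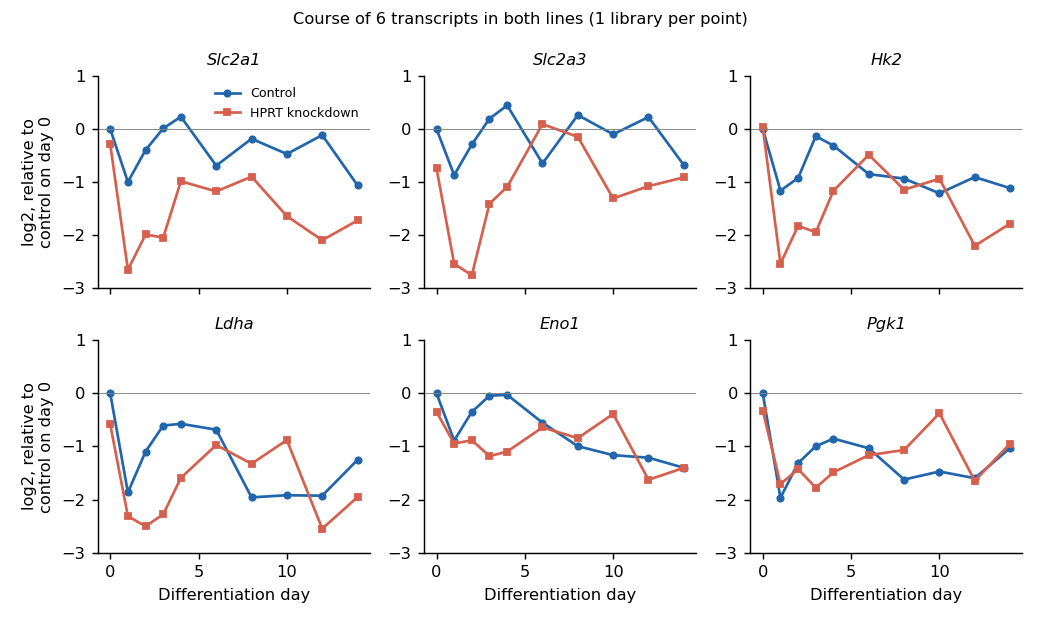
Log2 level of 6 transcripts by differentiation day, relative to the control line on day 0, in the control (blue circles) and the HPRT knockdown (red squares), 1 library per point and tables of consecutive days joined. The knockdown reaches -2.65 for Slc2a1 and -2.53 for Hk2 on day 1, and for Ldha, Eno1 and Pgk1 the knockdown is above the control on days 8 and 10.

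Trends with day were tested next. In the control line 3 of 10 genes had a slope that passed, Eno1 falling by 0.09 per day (SE 0.02, limma adjusted p 0.00946), Eno2 rising by 0.12 per day (SE 0.03, limma adjusted p 0.0165) and Ldhb rising by 0.04 per day (SE 0.01, limma adjusted p 0.0286). Over all genes 19.6% rose and 23.8% fell, so 2 rising and 1 falling of 10 is near the background. Eno2 rose together with the neuron markers, 9 of 13 of which rose in this line. The Eno2 call was lost without day 12 (adjusted p 0.0546) or day 14 (0.0859) and with log2(day + 1) in place of day (0.170), and that of Ldhb without any 1 of days 0, 2, 3, 10 and 12 (up to 0.0834), all by limma. The Eno1 call held in each of these fits.

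In the knockdown line 0 of 10 genes had a slope that passed by limma, with 0 at an unadjusted p under 0.05, where 12.8% of all genes were called. The test of the difference itself, the slope of the ratio on day, called 0 of 10 against 14.0% of all genes, with 2 at an unadjusted p under 0.05. Those were Eno2 at -0.11 per day (limma adjusted p 0.0553) and Ldhb at -0.07 per day (limma adjusted p 0.0848). With day as a linear term, no difference in time course between the lines was therefore shown for any of the 10 genes. Eno2 was called with log2(day + 1) (limma adjusted p 0.0462) and Ldhb with days 8 to 14 set against days 0 to 4 (limma adjusted p 0.0350).

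The rest of glycolysis was examined as context, from lists of genes that were not members. Of 24 further glycolysis genes 17 passed the filter, and 9 of them were called by limma, 6 higher and 3 lower in the knockdown. Over all genes tested 52.9% were called, so this share was at the background. The median ratio of the 17 was -0.27. Aldoc, the brain aldolase and an astrocyte marker, was the highest at 1.60 ± 0.60 (SD, n = 9 days; limma adjusted p 0.000141), followed by Bpgm, which makes 2,3-bisphosphoglycerate, at 0.77 ± 0.42 and Pfkfb2, a regulator of phosphofructokinase, at 0.70 ± 0.28. The lowest called were Pfkfb1 at -0.67 ± 0.61, the pyruvate kinase Pkm2 at -0.64 ± 0.46 (limma adjusted p 0.00447) and Gapdh at -0.63 ± 0.48 (limma adjusted p 0.00568). For Gapdh 50.2% and for Pkm2 40.2% of the 50-base stretches of the exons occurred elsewhere in the genome. The muscle phosphofructokinase Pfkm was higher at 0.27 ± 0.22 (limma adjusted p 0.0176), and the liver isoform Pfkl was at -0.51 ± 0.74 (limma adjusted p 0.0804) and the muscle enolase Eno3 at -1.51 ± 2.01 (limma adjusted p 0.0564), both short of the threshold. Pfkl was called without day 8 (limma adjusted p 0.0495) or day 10 (0.0297). Eno3 was called with day 6 kept (limma adjusted p 0.0301) and without day 0 (0.0405) or day 4 (0.0278). It was also called without pairing of the lines within a day (limma adjusted p 0.0460).

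The other members of the transporter family did not follow Slc2a1 and Slc2a3 as a group. Of 11 further sugar transporters 8 passed the filter. Of these, 4 were higher and 1 lower, against 52.9% of all genes called, with a median of 0.48. Slc2a9, a urate transporter, was at 1.22 ± 0.71, Slc2a10 at 1.20 ± 0.76 and Slc2a12 at 1.16 ± 0.47. The fructose transporter Slc2a5 was at -2.33 ± 1.57 (limma adjusted p 0.00242). These 4 genes had a typical log2 count between 4 and 8, as did Pfkfb1, Gapdh, Eno3, Slc16a7, Brp44l, Ankrd37 and Car12. Whether ratios in this range are understated was not examined.

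Of 18 genes of pyruvate and lactate handling that passed, 6 were higher and 1 lower, with a median of -0.04. The share called was under the 52.9% of all genes. The pyruvate dehydrogenase kinase Pdk1 was lower at -0.82 ± 0.62 (limma adjusted p 0.00524). The monocarboxylate transporter Slc16a7 was at 1.29 ± 1.54, a call that was lost in 8 alternatives, 6 of them with 1 day left out (limma adjusted p up to 0.0808, without day 14). Brp44l, a subunit of the mitochondrial pyruvate carrier, was at 1.15 ± 0.74 and pyruvate carboxylase Pcx, an astrocyte enzyme in brain, at 0.92 ± 0.39. Of 8 pentose phosphate genes 1 was higher and 1 lower, also under 52.9%, with a median of 0.07. The 2 were G6pdx, the first enzyme of the branch, at 0.27 ± 0.27 and Pgd at -0.25 ± 0.28.

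Of 21 hypoxia response genes that passed the filter, 4 were higher and 4 lower by limma, against 52.9% called over all genes, and 14 had a mean above 0 and 7 below, with a median of 0.14. The lowest called were Ankrd37 at -1.28 ± 1.15, the prolyl hydroxylase Egln3 at -0.77 ± 0.63 and the carbonic anhydrase Car12 at -0.57 ± 0.53. The highest called were the collagen prolyl hydroxylase P4ha2 at 0.82 ± 0.69, the angiogenic factor Vegfa at 0.66 ± 0.64 and Mxi1 at 0.60 ± 0.47. Calls of Ankrd37, Car12, Egln3, G6pdx, Mxi1, P4ha2, Pfkm, Pgd and Vegfa were lost in the fit without pairing of the lines within a day. With day 6 kept, the calls of Pfkfb1 (limma adjusted p 0.128), Pfkm (0.266), Ankrd37 (0.0532), Car12 (0.187) and G6pdx (0.0612) were lost. The exact sign-flip test did not call Car12 (adjusted p 0.0536), Pgd (0.0595) or Slc16a7 (0.0655), and Pgd and G6pdx were each lost in 7 of the 9 fits with 1 day left out (limma adjusted p up to 0.109 without day 3 and 0.0780 without day 12).

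The pattern over days was also described for the 10 genes as a whole. The median of their ratios was -0.16, 0.05, -0.32, -0.96 and -0.74 on days 0 to 4. Days 8, 10, 12 and 14 had medians of -0.19, -0.05, -0.52 and -0.16 and day 6 had -0.21, while the median of all genes tested stayed between -0.03 and 0.02. The median was thus lowest on days 3 and 4, with 8 of 10 genes lower in the knockdown on each, while day 12 had 9 of 10 lower and day 6 had 8. The pluripotency median was -1.76 and -1.36 on days 3 and 4. It was lowest on day 1 (-7.08) and day 10 (-4.94), when 5 of the 10 genes were lower and 5 higher. The 5 lower on day 1 included Slc2a1 (-1.65), Slc2a3 (-1.67) and Hk2 (-1.37). Those on day 10 included Slc2a1 (-1.17) and Slc2a3 (-1.21), with Hk2 at 0.27. A link between the pluripotency markers and the 10 genes was not tested.

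Among the genes outside the set whose ratio over the 10 days ran most like this median were Chac1, a glutathione-degrading enzyme induced by amino acid stress, with a Pearson r of 0.887, the predicted genes Gm1840 (0.857) and Gm6992 (0.836), and the aldolase Aldoa (0.834). These values are over 10 days that share their libraries and are a description only. Aldoa, the enzyme before the triose phosphates in glycolysis, had a ratio of -1.07 on day 3 and 0.58 on day 10.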

How the data were processed

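RNA-seq was made from 20 libraries. Per the study's methods and the submitters' processing notes, the authors aligned reads to mm9 with CASAVA 1.8.2 and normalized gene counts with DESeq. They deposited 28 tables on a log2 scale, each of 2 libraries (10 same-day, 9 of consecutive days per line) with the mean of the 2 subtracted, so a table gives a ratio and no level. Tables were normalized separately: loops of 4 neighboring tables left constants of 0.0032 to 0.0942 (log2). Low counts entered as 0, which understates ratios of low genes. These values hold no read totals, so the depth of each library is unknown and no counting interval is given. Which lane a library ran in is not given in these sources, and lane effects could not be examined. Strand was not used.

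A gene passed the filter when the rounding step of its values corresponded to a typical log2 count of at least 4 (13438 genes, all 10 members among them; 9 members were at 8 or above). This filter and limma 3.58.1 (R 4.3.3) took the place of a pseudocount and a count model. Ratios of 9 days were tested with limma and Benjamini-Hochberg adjustment over all genes. Lines were paired by the shared day; deviations from the line means correlated at over 0.1 on 8 of 9 days (r from 0.0104 on day 0 to 0.446). Days are successive collections of 1 line, so p-values measure the spread between days and not between lines made separately. For all 10 members the tables closed within 1e-05 around 8 loops once the constant was taken off; in the loop of days 3 and 4 the largest gap was 0.375, for Eno2.

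Members and lists were chosen with earlier results of these data known. Named were all members, Hprt, the 3 highest and 3 lowest called genes of each context list, isoform partners and the 5 genes most like the members' median, 1 of which is not reported here. Alternatives were other filters, day 6 kept, each day left out, centering, an unpaired fit, an exact test and other forms of day.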

Additional observations from a re-analysis of the deposited data

Results flagged for a closer look

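Of 40 sets of 10 daily values examined for a day far from the others, 1 stood out. The ratio of Pfkm, the muscle phosphofructokinase, was -0.75 on day 6, and the nearest other day was at 0.03. Chance flags about 1 in 20 such sets. Day 6 was not part of the tests.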

How the results depend on the processing

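The lower levels of Slc2a1, Slc2a3 and Hk2 were called in each of 15 alternative settings. Leaving out 1 day gave between 3 and 5 of the 10 genes called, and 5 only without day 10, when Eno1 and Ldha were added. Without pairing of the lines within a day (no replicate block) 5689 genes were called in place of 7106, with 3 of the 10 genes. Leaving out 1 day gave 6229 to 7233 genes called.

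For the slope of the ratio, 1888 genes were called, 1057 with day 6 kept, 792 with days 8 to 14 set against days 0 to 4, and 603 to 1658 with 1 day left out. Of the 10 genes 1 was called with log2(day + 1) (Eno2, limma adjusted p 0.0462) and 1 with the 2 windows (Ldhb, 0.0350). In the control line 5830 genes had a slope, 3823 with log2(day + 1) and 4520 to 6174 with 1 day left out, where 1 to 5 of the 10 genes were called. In the knockdown line the counts were 1718, 136 and 208 to 2908, so that count depends on the day left out. Leaving out 1 day gave -1.04 to -0.77 for Hk2 minus Hk1 (exact p 0.0078 to 0.0234 before adjustment), 0.59 to 0.9995 for Eno2 minus Eno1 (exact p 0.0156 to 0.102, below 0.05 without day 10 or day 12), 0.18 to 0.67 for Ldhb minus Ldha and -0.06 to 0.13 for Slc2a3 minus Slc2a1. The cause of these changes was not tested. A change of pseudocount was not run, since the values are already on a log2 scale.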
